A study of Mus musculus with 6 samples.

Results

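The genes described here are Sox5, Sox6 and Sox9, which encode the transcription factors that together drive cartilage formation, and 7 genes of non-collagen cartilage matrix proteins (Acan, Comp, Hapln1, Matn2, Matn3, Chad and Prg4). They were chosen by name, and all 10 had 1 row each among the 43346 rows of the deposited table. RNA was sequenced from MC3T3-E1 cells, an established mouse osteoblastic line, after 2 days in osteoblast differentiation medium. There were 3 libraries labelled as the control line and 3 labelled as the Rorβ-CRISPR (KO) line, which was edited in the gene of a retinoid-related orphan nuclear receptor. The labels name no other allele or agent, and they give neither the number of edited clones nor whether replicates were separate cultures. The spread that p-values use is therefore that of these samples and could be technical.

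SOX9 binds DNA through a high-mobility-group box and switches on genes of the chondrocyte, the cell type of cartilage. SOX5 and SOX6 are close relatives that carry no activation domain of their own and bind beside SOX9 at cartilage enhancers. Aggrecan, the product of Acan, is the large proteoglycan that holds water in cartilage. The link protein made from Hapln1 fastens aggrecan to hyaluronan, while matrilins, COMP and chondroadherin tie collagen fibrils to other matrix molecules. Lubricin, from Prg4, coats joint surfaces. Osteoblasts and chondrocytes share a skeletal precursor that expresses Sox9.

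Values are CPM of an effective library size that carries the authors' trimmed-mean (TMM) factors, and errors are SDs over 3 libraries unless given otherwise. Reads in genes ranged from 34662707 to 42603315 per library, and 1 read was worth 0.0217 to 0.0271. The rows Yam1, AY036118 and Lars2, called ribosomal RNA rows here by assumption, took 25.4, 17.9 and 16.9% of reads in control. They took 15.2, 13.1 and 13.9% in the labelled libraries. With TMM factors computed without these rows, 4592 genes were called higher and 4338 lower, against 4441 and 4501 with the authors' factors. Any part of this difference in the results other than through scaling was not tested. In reads scaled by their total alone, without TMM factors, control library 1 stood apart. Its chi-square per degree of freedom was 47.1 and 65.5 against the other controls, and 6.12 between those. The targeted gene, Rorb, had 1, 3 and 0 reads in control against 69, 78 and 111 in the libraries labelled Rorβ-CRISPR. Its RNA was thus higher in the libraries labelled KO, a label that names an edit and not an RNA level. Whether the labels are right was not tested, and each direction given here follows the labels alone. All 10 osteoblast markers passed the filter on low values, with 4 called higher and 6 lower (32.9% and 33.3% of all tested rows). Their summed level was 72147 to 74615 in control and 42752 to 44095 in the labelled libraries. Most of that sum was Col1a1, from 35509 ± 1018 to 20891 ± 539, and Col1a2, from 30527 ± 339 to 17252 ± 267. The 4 called higher were Runx2, Sp7, Alpl and Ibsp. Of 12 chondrocyte markers other than the genes described here, 3 passed the filter (Col2a1, Col11a2 and Ucma). Snorc had 0 reads in all 6 libraries, and Col9a1, Cnmd and Epyc had at most 6 reads in all. The summed level of the 12 was 277.8 to 299.7 in control and 190.5 to 202.8 in the labelled libraries. Nearly all of that sum was Col2a1, at 283.2 ± 11.5 and 186.4 ± 7.89, while Col11a2, Col9a2, Col9a3, Col10a1, Matn1 and Ihh had higher means in the labelled libraries. Tenocyte markers summed to 1372 to 1413 and 1152 to 1227 (mostly Fmod, 3 of 6 tested and called lower, Thbs4 at 0), skeletal muscle markers to 8.46 to 9.66 and 3.30 to 3.63 (mostly Des, Myod1 and Myog at 0). Adipocyte markers summed to 7.66 to 10.1 and 9.46 to 9.71 (mostly Cebpa, Plin1 at 0), and endothelial and blood markers to 14.1 to 17.3 and 8.16 to 9.13 (mostly Lyz2, Cdh5 and Kdr at 0). The part of these markers in the results below was not tested.

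Sox6 and Sox5 moved in opposite directions between the lines, while Sox9 lay close to its control level. In the libraries labelled Rorβ-CRISPR, Sox6 was 2.67-fold higher and Sox5 was 1.70-fold lower in mean value, and Sox9 was 1.15-fold lower. Among the matrix genes, Matn2 fell, and so did Hapln1, whose direction was fixed by the filter on low values. Comp was called higher, but its groups overlapped and its call was lost under 6 alternatives. Prg4 did not pass the test and Acan had no reads. Matn3 and Chad had too few reads to be tested. Lower RNA in such bulk samples can mean fewer cells of a type or less RNA per cell, which cannot be told apart.

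**Figure D1:**
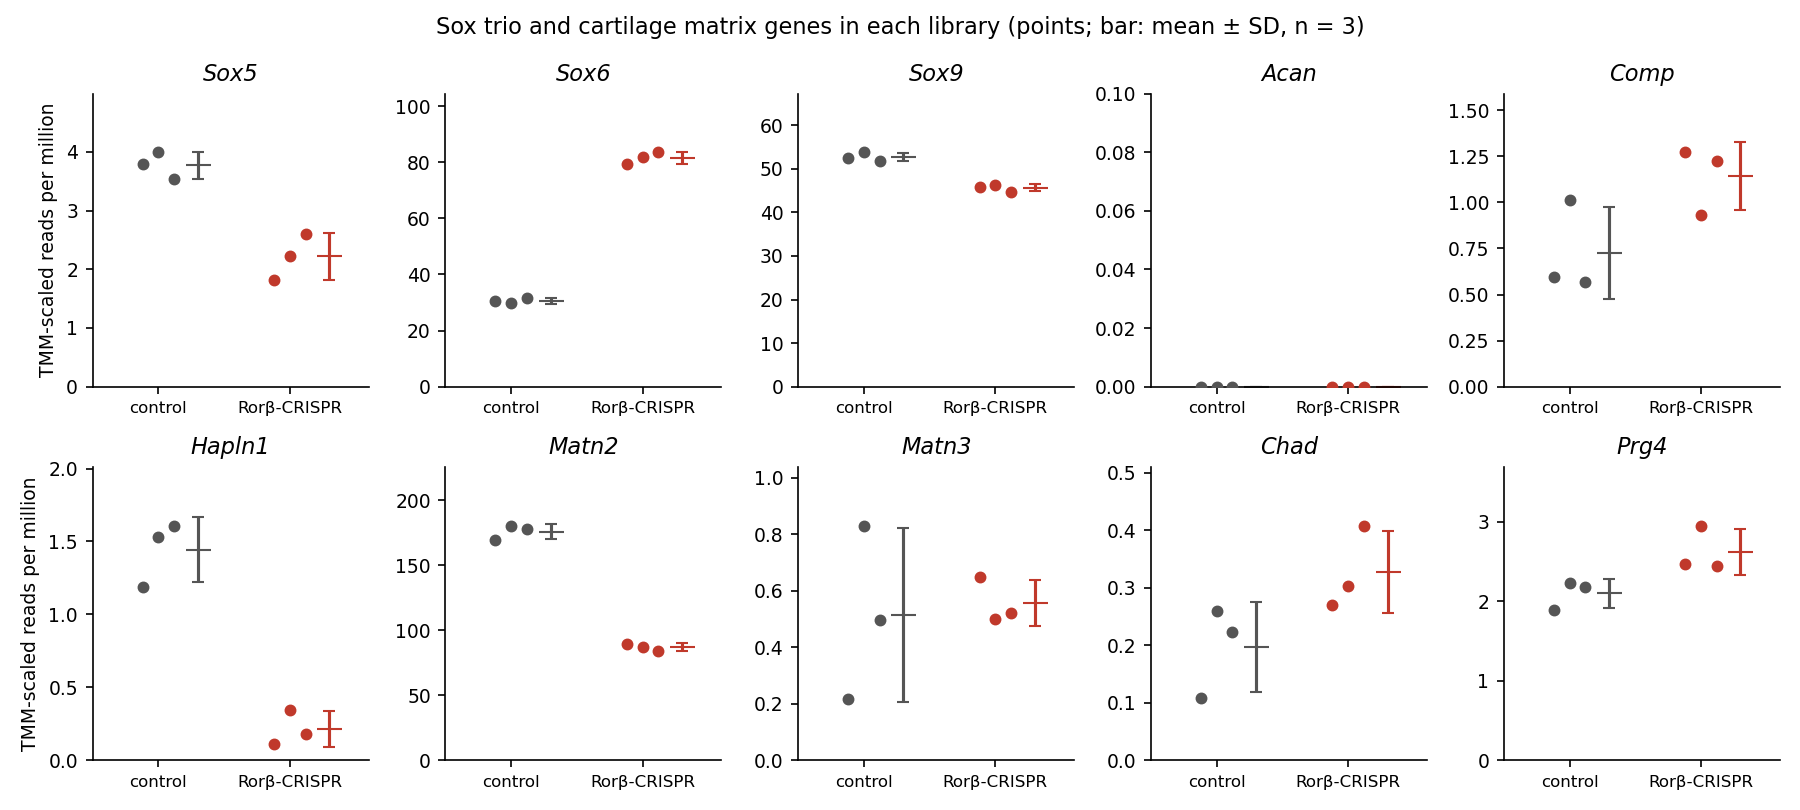
Value of each gene in each library (points, TMM-scaled CPM, linear axes from 0) with the mean and SD of 3 libraries per group. Sox6 lay between 79.3 and 83.6 in the labelled libraries against 29.6 to 31.5 in control, Matn2 and Hapln1 were lower in every labelled library, and Acan was at 0 throughout.

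The test was limma-trend on log2(value + 1), restricted to rows that reached 1 in 3 or more libraries, at a Benjamini-Hochberg adjusted p of 0.05 over all 13498 tested rows. Of the 10 genes, 7 passed the filter, and 2 of these were called higher (Sox6 and Comp) and 4 lower (Sox5, Sox9, Hapln1 and Matn2). Over all tested rows 66.2% were called, 32.9% higher and 33.3% lower. edgeR on recovered reads gave the same member counts of 2 and 4, with 66% of rows called, 32.7% higher and 33.3% lower. Without a filter edgeR called 37.5% of 25336 rows, 18.5% higher and 19% lower. With library size only, 68.6% of rows were called, 53.9% higher and 14.7% lower. The groups did not overlap in 68.4% of tested rows, 33.9% higher and 34.5% lower. A share of calls near that background is no result about these genes, and the sizes of the differences carry the description. Hapln1 passed the filter only through the control libraries, so it had to differ. Without control library 1 the log2 fold changes were 1.39 for Sox6, -0.57 for Sox5, -0.21 for Sox9, -1.03 for Matn2, -1.09 for Hapln1, 0.27 for Comp and 0.17 for Prg4, and of the calls that of Comp was lost.

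Sox6 stood at 30.4, 29.6 and 31.5 in control, against 79.3, 81.8 and 83.6 in the labelled libraries. Every labelled library was above every control library. The log2 fold change was 1.39 (SE 0.042, limma-trend adjusted p = 6.77e-33), with a 95% interval of 1.30 to 1.47. Only 66 of the 13498 tested rows, Sox6 among them, had a log2 fold change as high. The value rested on 1125 to 3769 reads per library. Sox6 lies on chromosome 7, where the median log2 fold change of 928 tested genes was -0.04. Its log2 fold change was 1.61 with library size only as the scaling and 1.43 after centring on the chromosome median.

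Sox5 stood at 3.79, 3.998 and 3.54 in control and at 1.81, 2.24 and 2.61 in the labelled libraries. The groups did not overlap. Sox5 fell by 0.57 on the log2(value + 1) scale (SE 0.109, limma-trend adjusted p = 8.34e-06), or by 0.76 in edgeR's test on recovered reads, which adds no 1 to the value. Reads numbered 140, 154 and 143 in control and 67, 103 and 115 in the labelled libraries. An annotated antisense gene, Sox5os1, shares 1330 exonic bases with Sox5 and had a value of at most 0.0779 in any library.

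Sox9 had values of 52.4, 53.8 and 51.9 in control and 45.9, 46.3 and 44.7 in the labelled libraries. The groups were narrow and did not overlap. The coefficient of variation was 1.89% in control and 1.82% in the labelled libraries, below the 2.22% and 2.27% that counting alone gives at the mean read number. Sox9 fell by 0.20 (log2, SE 0.042, limma-trend adjusted p = 3.18e-05), but with library size only it was at 0.018 and not called (adjusted p = 0.822). That scaling raised the median tested gene by 0.21, and relative to that median Sox9 was at -0.19. Sox9 was called with DESeq2 size factors (-0.21) and with TMM without ribosomal RNA rows (-0.19). Over all rows, library size only gave 7273 higher and 1985 lower calls, with 78.6% of calls higher against 49.7% with TMM.

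Ratios of reads within a library do not depend on the scaling. Sox6 reads per Sox9 read came to 0.580, 0.551 and 0.607 in control, against 1.73, 1.77 and 1.87 in the labelled libraries. The mean ratio was 3.08-fold higher in the labelled libraries (exact two-sided permutation p = 0.1, the smallest that 3 against 3 libraries allow). Sox6 reads per Sox5 read rose from 8.12 ± 0.747 to 37.4 ± 5.89 in mean, without overlap (exact permutation p = 0.1). Sox5 reads per Sox9 read were 0.0716 ± 0.00308 in control and 0.0487 ± 0.00943 in the labelled libraries, also without overlap (exact permutation p = 0.1). The reads of the trio were thus partitioned differently in the lines. Sox6 reads were fewer than Sox9 reads in each control library and more numerous in each labelled one. These reads are not corrected for gene length. Per kilobase of exon, Sox6 stayed below Sox9 in the labelled libraries too, at means of 5.50 and 11.04.

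**Figure D2:**
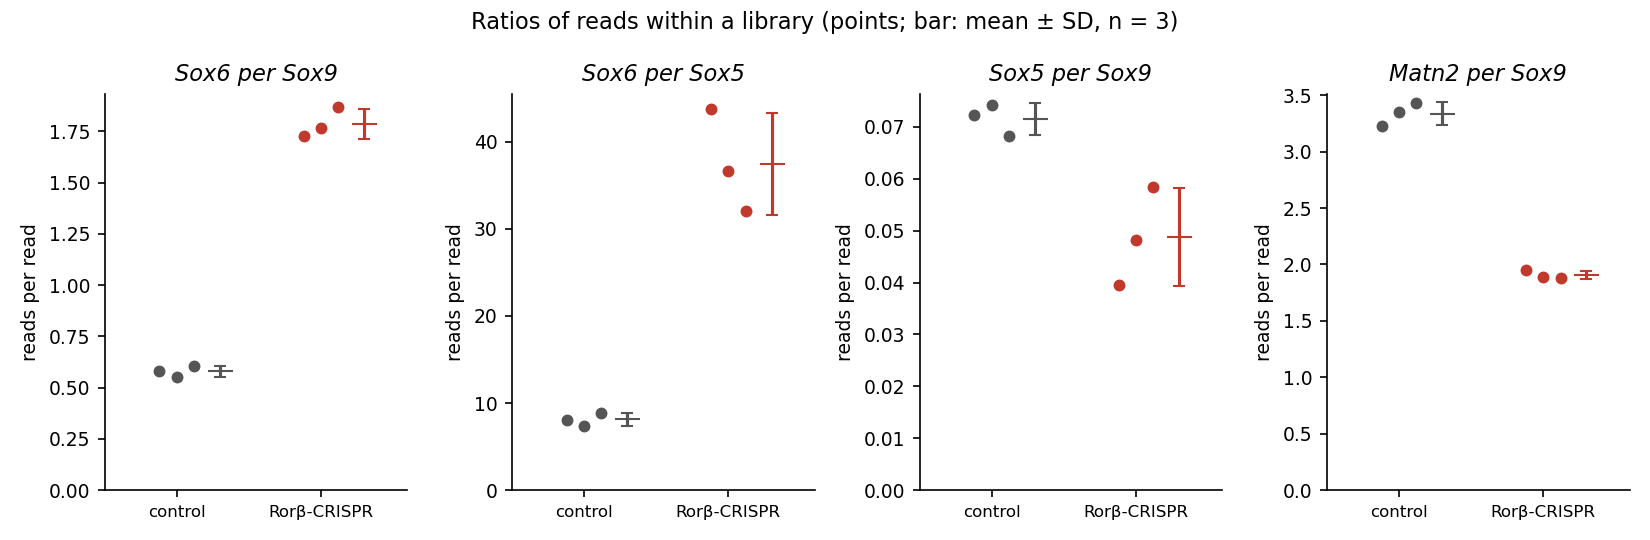
Reads of one gene per read of another in each library (points, linear axes from 0) with the mean and SD of 3 libraries per group. Sox6 per Sox9 lay at 0.551 to 0.607 in control and 1.73 to 1.87 in the labelled libraries, and Matn2 per Sox9 at 3.23 to 3.43 and 1.88 to 1.95.

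Promoter windows of Sox6 and Sox5, whose RNAs moved most among the trio, and of Hapln1, whose fold was the largest fall, are printed to show the sequence around annotated starts. They come from RefSeq's GRCm38.p6 annotation, run from 250 bases before to 50 after a start, and cover 6 of the 10 genes. The deposited values were made on mm9, and reads per gene do not show which start was used. Sox6 has 6 such windows, of which the most upstream and the next are shown. The Sox5 window belongs to a start 835181 bases inside the gene. Capitals mark AGGTCA, the core of the motif bound by ROR receptors, and ACAAAG or ACAATG, letters bound by SOX proteins, on either strand.
Sox6, chr7:116038695-116038994, minus strand: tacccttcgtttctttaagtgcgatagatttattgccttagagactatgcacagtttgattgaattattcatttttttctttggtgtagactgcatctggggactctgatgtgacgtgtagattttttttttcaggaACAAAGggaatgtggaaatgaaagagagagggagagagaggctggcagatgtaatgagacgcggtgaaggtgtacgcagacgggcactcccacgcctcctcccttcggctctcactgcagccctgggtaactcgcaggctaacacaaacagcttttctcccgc
Sox6, chr7:116030998-116031297, minus strand: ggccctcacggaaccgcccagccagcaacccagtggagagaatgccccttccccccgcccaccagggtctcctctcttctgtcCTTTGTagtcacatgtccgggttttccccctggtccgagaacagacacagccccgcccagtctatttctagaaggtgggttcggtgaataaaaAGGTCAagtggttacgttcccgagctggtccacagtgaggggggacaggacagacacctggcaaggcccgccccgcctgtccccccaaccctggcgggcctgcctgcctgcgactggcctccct
Sox5, chr6:143947057-143947356, minus strand: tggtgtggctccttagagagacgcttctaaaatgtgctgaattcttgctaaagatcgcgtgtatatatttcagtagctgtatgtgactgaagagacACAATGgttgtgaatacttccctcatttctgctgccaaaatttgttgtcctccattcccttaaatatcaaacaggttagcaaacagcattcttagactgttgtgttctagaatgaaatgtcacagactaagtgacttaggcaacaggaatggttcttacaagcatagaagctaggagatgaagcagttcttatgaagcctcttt
Hapln1, chr13:89540386-89540685, plus strand: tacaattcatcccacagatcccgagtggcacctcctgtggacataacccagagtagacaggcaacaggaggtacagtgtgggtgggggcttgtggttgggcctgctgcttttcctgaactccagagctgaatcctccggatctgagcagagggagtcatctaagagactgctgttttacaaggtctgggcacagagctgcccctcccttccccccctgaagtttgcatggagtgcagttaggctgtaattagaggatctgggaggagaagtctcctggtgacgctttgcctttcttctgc

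AGGTCA occurred in 2 of the 6 Sox6 windows, at 74 bases before the start in the second window shown. It is found in 16.3% of the 32851 RefSeq promoter windows of 300 bases. None of the member windows held the longer TAGGTCA, which overlaps AGGTCA and is found in 2.61% of windows. ACAAAG or ACAATG occurred in 5 of the 6 Sox6 windows and in the Sox5 window, against 28.6% of all windows. The Acan, Hapln1, Matn3 and Chad windows held none of these letters, which says nothing of the factors themselves. Base composition was not matched, and the Sox6 windows belong to the same gene, so these shares do not test enrichment.

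Matn2 encodes a matrilin found widely in connective tissue, and it had the highest values of the 10 genes. These were 169.4, 180.5 and 177.8 in control and 89.6, 87.4 and 84.1 in the labelled libraries. The lowest control library was well above the highest labelled one. Matn2 fell by 1.01 on the log2 scale (SE 0.032, limma-trend adjusted p = 8.49e-32), a mean that was 2.02-fold lower, and 364 of 13498 rows were at least as low in log2 fold change. It lies on chromosome 15, where the median log2 fold change of 479 tested genes was -0.26 and 67.4% of them were called lower. Centred on that chromosome's median it was at -0.73 (adjusted p = 2.2e-25). Matn2 reads per Sox9 read went from 3.34 ± 0.0992 to 1.91 ± 0.0379 (exact permutation p = 0.1). The opposite-strand gene 9430069I07Rik shares 70 exonic bases with Matn2 and fell too, from 5.72 ± 0.0618 to 3.15 ± 0.337. The strand used in counting is not given in the sources used here.

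Matn3, a matrilin of cartilage, had few reads, at 8, 32 and 20 in control and 24, 23 and 23 in the labelled libraries. The control libraries spanned the labelled ones. Summed reads, each divided by effective library size, had a ratio of 1.06 (exact 95% counting interval 0.743 to 1.53), and no difference was detectable at this depth. Such intervals and floors hold counting error alone, molecular identifiers not being mentioned in the labels.

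Hapln1 had values of 1.19, 1.53 and 1.61 in control and 0.108, 0.347 and 0.181 in the labelled libraries, from 44, 59 and 65 reads against 4, 16 and 8. All 3 labelled libraries were far below the lowest control library. Its log2(value + 1) difference was -1.01 (SE 0.128), a description since the filter fixed its direction, and that scale understates the change at such low values. In edgeR without a filter, chosen after seeing the data, Hapln1 was at -2.71 (adjusted p = 2.24e-16). Summed reads had a ratio of 0.152 (exact 95% counting interval 0.0980 to 0.228). Hapln1 lies on chromosome 13, where the median log2 fold change was 0.20, and after centring on that median it was at -1.20.

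Acan, whose protein is the partner of that link protein, had 0 reads in each of the 6 libraries. A count of 0 allows up to 3 reads per library, or values of 0.0651 to 0.0812. Aggrecan RNA was thus not detectable in either line, and no fold can be given.

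**Figure D3:**
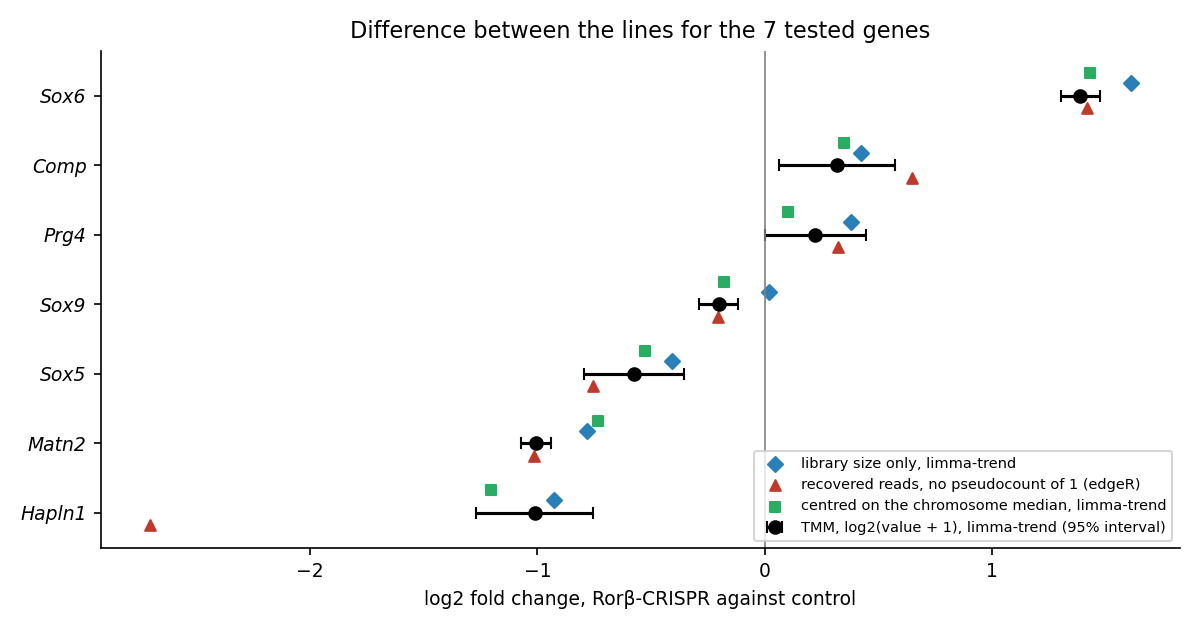
Log2 fold change of the 7 tested genes, labelled Rorβ-CRISPR against control, with its 95% interval (black), and the values with library size only (blue diamonds), in edgeR on recovered reads (red triangles) and after chromosome centring (green squares). Sox6 lay at 1.39 to 1.61 and Matn2 at -1.02 to -0.73, Sox9 moved from -0.20 to 0.018 with library size only, and Hapln1 from -1.01 to -2.70 on recovered reads.

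Comp, a thrombospondin family gene of cartilage and tendon, had values of 0.595, 1.01 and 0.569 in control and 1.27, 0.933 and 1.22 in the labelled libraries. The second control library lay above the second labelled one, so the groups overlapped. Comp rose by 0.32 on the log2(value + 1) scale (SE 0.127, limma-trend adjusted p = 0.0253) and by 0.65 in edgeR on recovered reads (adjusted p = 0.0240). It rested on 22 to 54 reads per library. The call was lost with DESeq2 (adjusted p = 0.0776) and on leaving out control replicate 1 (0.0969), control replicate 3 (0.109), labelled replicate 1 (0.0931) or labelled replicate 3 (0.0748), all adjusted p. The authors' deposited table gives Comp a q-value of 0.0699.

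Prg4 had values of 1.89, 2.23 and 2.18 in control and 2.46, 2.95 and 2.45 in the labelled libraries. Each labelled library was above each control library, but the difference did not pass the test, at a log2 fold change of 0.22 (95% interval 0.00089 to 0.44, limma-trend adjusted p = 0.0715). With library size only it passed, at 0.38 (adjusted p = 0.00248). Prg4 shares 204 exonic bases with the opposite-strand gene Tpr, which had values of 169.2 ± 4.34 in control and 213.6 ± 7.23 in the labelled libraries and was called higher at 0.33. Without strand, reads of these genes in the shared bases cannot be told apart. Prg4 lies on chromosome 1, with a median log2 fold change of 0.12, and after centring on that median it was at 0.10 (adjusted p = 0.432).

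Chad, the chondroadherin gene, had 4, 10 and 9 reads in control and 10, 14 and 18 in the labelled libraries, or values of 0.108 to 0.260 and 0.271 to 0.408. The groups did not overlap in value (exact permutation p = 0.1), yet the ratio of summed reads, 1.67, had an exact 95% counting interval of 0.979 to 2.90. Chad lies within the span of the opposite-strand gene Acsf2 without shared exonic bases.

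Levels can be compared between genes only per length, here per kilobase of exon in GENCODE M21, whose union of all exons (14.4 kb for Sox5 and 14.8 kb for Sox6) lowers the values of both. Per kilobase, the control order of levels was Matn2 at 28.1 ± 0.920, Sox9 at 12.7 ± 0.242, Sox6 at 2.06 ± 0.0629 and Prg4 at 0.491 ± 0.0425. Sox5 (0.263 ± 0.0160), Hapln1 (0.245 ± 0.0377) and Comp (0.245 ± 0.0838) followed and lay within their spread of each other, as did Matn3 and Chad at 0.171 ± 0.102 and 0.117 ± 0.0470. In the labelled libraries Matn2 (13.9 ± 0.440 per kilobase), Sox9 (11.04 ± 0.201) and Sox6 (5.50 ± 0.144) stood closer together. Sox5 had a level of 0.154 ± 0.0276 there, within 1 SD of Chad (0.195 ± 0.0427) and just below that of Matn3 (0.185 ± 0.0270), and Hapln1 was the lowest with reads, at 0.0360 ± 0.0207.

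The wider Sox family was described to place the trio. Of 17 other Sox genes in the table, 3 passed the filter, with Sox13 called higher and Sox4 and Sox11 lower (32.9% and 33.3% of all tested rows). Sox13 belongs to the same subgroup (SoxD) as Sox5 and Sox6. Its values were 0.271, 0.208 and 0.148 in control and 3.55, 2.26 and 2.65 in the labelled libraries. It passed the filter only through the labelled libraries and so had to differ, which makes its values a description. Sox4, a SoxC gene active in skeletal progenitors, fell from 132.3 ± 7.59 to 97.3 ± 3.71, and an opposite-strand gene that shares 2616 exonic bases with it, Gm26735, fell from 77.5 ± 3.02 to 55.1 ± 2.73. Sox11, also SoxC, was at 11.9 ± 0.934 and 9.66 ± 0.952 and was called lower, but not with library size only. Sox9's SoxE relatives Sox8 and Sox10 had at most 4 reads in any library. The other untested Sox genes reached at most 36 reads, which was Sox18.

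Of 6 other matrilins and thrombospondins, 4 were tested and all 4 called lower (33.3% of all tested rows), with a median log2 fold change of -1.06 against 0.00 over all tested rows. Matn4, a broadly expressed matrilin, fell from 143.3 ± 5.42 to 30.7 ± 0.215, and Thbs2, which encodes a matricellular thrombospondin, from 636.4 ± 10.8 to 231.6 ± 5.06. Matn4 shares 149 exonic bases with the opposite-strand gene Rbpjl, which fell from 12.6 ± 0.526 to 2.45 ± 0.431. Thbs3 and Thbs1 were at -0.67 and -0.26 (log2), and Thbs1 was not called with library size only (adjusted p = 0.593). Matn1, a matrilin of cartilage that was picked out with its values known, had 0 reads in each control library against 6, 13 and 7 in the labelled ones. Counted against 3 reads over the control group, that was 7.90-fold higher, a figure that leaves out the counting error of the labelled reads.

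Among 10 lecticans, link proteins, hyaluronan synthases and the receptor Cd44, 5 were tested, 3 called lower and 0 higher (33.3% and 32.9% of all tested rows) in the libraries labelled Rorβ-CRISPR, with a median log2 fold change of -0.30. With library size only Cd44 was called higher, as given below. Vcan, which encodes versican, the lectican of loose connective tissue, fell from 141.3 ± 1.37 to 35.6 ± 3.35. Has2, a hyaluronan synthase gene, was at -0.30 and was not called after chromosome centring (-0.03) or with library size only (-0.09). Cd44 was not called, at 500.8 ± 7.57 and 495.7 ± 6.64, and turned to 0.21 and was called (adjusted p = 0.00135) with library size only. Has3 was not called, at -0.11, and turned to 0.11 with library size only. Hapln4, a link protein gene named here after its values were seen, fell from 25.8, 27.2 and 25.1 in control to 7.09, 9.05 and 6.10 in the labelled libraries.

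Of 13 other non-collagen cartilage matrix genes, 6 were tested, with 1 higher and 4 lower (32.9% and 33.3% of all tested rows) and a median log2 fold change of -0.18. Fmod, the gene of the collagen-binding proteoglycan fibromodulin, was called lower at -0.21 (-0.33 after chromosome centring) but lay at 0.020 and was not called with library size only. Mgp, whose product inhibits calcification, was called lower at -0.09 and turned to 0.14 (adjusted p = 0.0359) with library size only, and it was not called after chromosome centring (-0.039, adjusted p = 0.101). Prelp, a leucine-rich matrix protein gene, rose from 142.1 ± 2.11 to 165.7 ± 4.68, as did the opposite-strand Gm15851, with 350 shared exonic bases, from 20.7 ± 0.702 to 24.5 ± 0.964. After chromosome centring Prelp went from a log2 fold change of 0.22 to 0.099. Otor, the otoraplin gene, fell from 11.99 ± 1.22 to 8.59 ± 0.792. Snorc and Clec3a had 0 reads in all libraries.

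Cartilage collagens, which SOX proteins are known to act on, gave 1 higher and 2 lower of 3 tested genes out of 7, against 32.9% and 33.3% of all tested rows. Col2a1, the main collagen gene of cartilage, fell from 283.2 ± 11.5 to 186.4 ± 7.89 (log2 fold change -0.60, limma-trend adjusted p = 3.92e-21) and lies on chromosome 15, where centring left it at -0.33. Col11a1 fell from 1239 ± 32.3 to 565.3 ± 8.68, whereas Col11a2 rose from 6.21 ± 0.432 to 9.68 ± 0.888. Col10a1, the marker of hypertrophic cartilage, had 7 reads in all.

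Regulators known to act with SOX9 or in chondrocytes were tested in 15 of 18 cases, with 4 higher and 10 lower (32.9% and 33.3% of all tested rows) and a median log2 fold change of -0.24. The 10 lower include Pthlh, which passed the filter only through control and so had to differ. Trps1, a repressor gene of the growth plate on chromosome 15, fell from 130.1 ± 3.30 to 94.4 ± 3.13, a log2 fold change of -0.46 that was -0.19 after chromosome centring. Gli3, a Hedgehog effector, was called lower at -0.33, at -0.53 after centring, but not with library size only (-0.11). Runx2, the regulator of osteoblasts and hypertrophic chondrocytes, rose from 224.4 ± 6.57 to 261.3 ± 2.35, and the opposite-strand Runx2os1, with 519 shared exonic bases, rose from 2.26 ± 0.442 to 3.15 ± 0.426. Pth1r, the parathyroid hormone receptor gene, rose from 125.8 ± 4.35 to 174.5 ± 8.24.

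**Figure D4:**
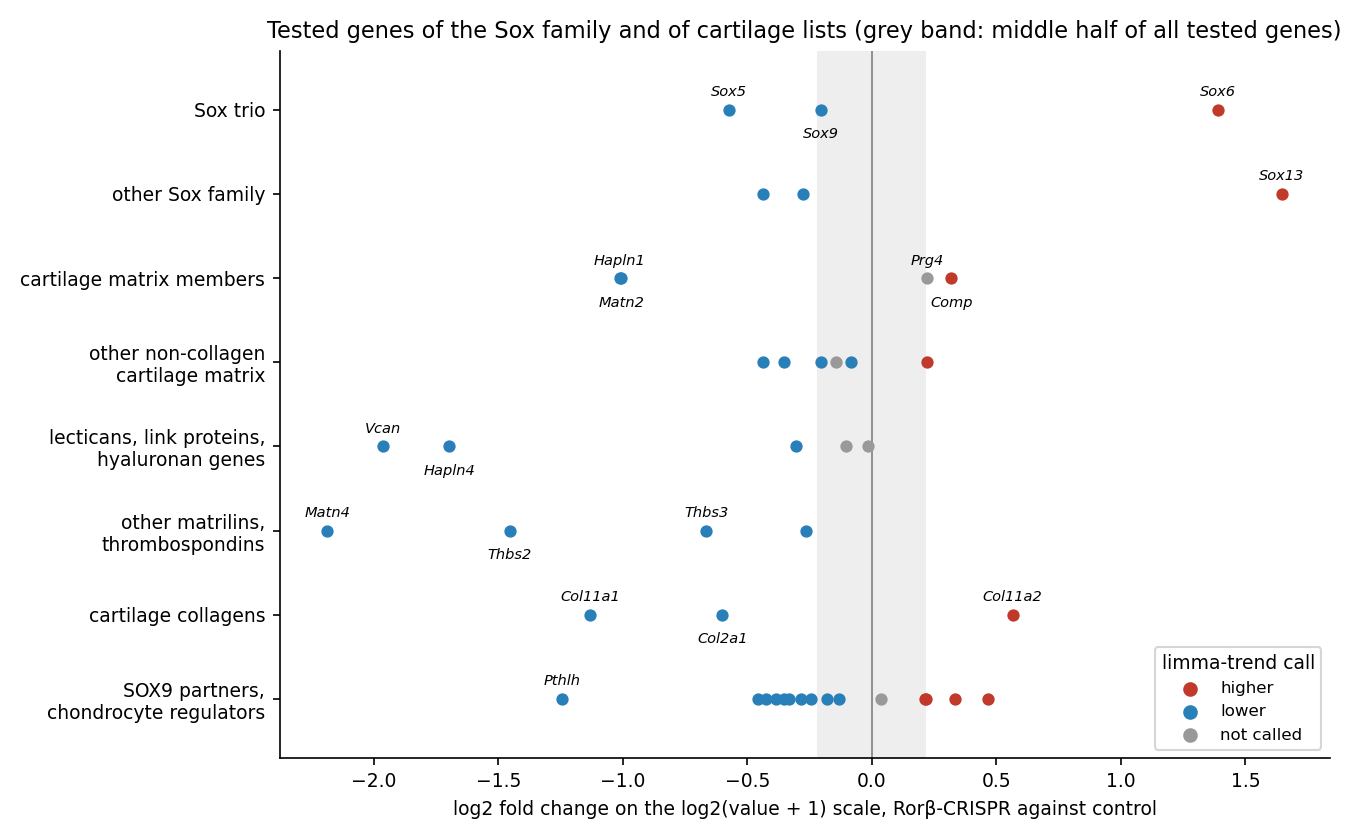
Log2 fold change on the log2(value + 1) scale of each tested gene, by list, coloured by its limma-trend call, with a grey band from -0.22 to 0.21 that holds the central 50% of all tested rows. Sox6 and Sox13 lay apart at 1.39 and 1.65, and Matn4, Vcan and Hapln4 were the lowest, at -2.19, -1.96 and -1.70. Sox13 passed the filter only through the labelled libraries, and Hapln1 and Pthlh only through control, so their directions were fixed. Library size only, which raises the median gene by 0.21, turned the signs of Sox9, Fmod, Mgp, Cd44 and Has3 among the genes named in the text. Values of the other plotted genes under that scaling are not given here.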

How the data were processed

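RNA of 6 MC3T3-E1 libraries, 3 per line, was analysed. TopHat2 2.0.6 and HTSeq were used with build mm9, per the submitters' processing notes. Each library's column holds a signal (CPM with TMM factors) computed by the authors, per the file headers. Further deposited columns are median counts per group, a fold (ratio), a p-value and a q-value. Which annotation, strand setting and test the authors used is not given in the sources used here. In each library 100% of values were whole multiples of 1 read within 0.01, and group medians of these reads equalled the deposited median counts in 43346 rows.

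Since the values are scaled, the planned main test was kept, robust limma-trend of log2(value + 1), which understates fold changes of low genes. It took the 13498 rows that reached 1 in 3 or more libraries. It was checked on simulated counts of independent libraries in which few genes differed, unlike here, so that check concerns the code and not these data. edgeR on the recovered reads called 8911 rows and limma-trend 8942. Chromosomes came by symbol from RefSeq GRCm38.p6 (12584 tested rows matched), and lengths and overlaps from GENCODE M21, used for names and relations because the authors' build differs. Snorc and Cnmd were matched by older symbols.

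Members, lists and tests were chosen with earlier results of these data known. All 10 members are named. From each of 6 related lists up to 4 tested genes of highest mean value are named. Tools were edgeR 4.0.16, limma 3.58.1 and DESeq2 1.42.0 under R 4.3.3, and scipy 1.17.1, pandas 2.3.3 and matplotlib 3.10.9 under Python 3.11.15.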

Additional observations from a re-analysis of the deposited data

How the results depend on the processing

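With library size only, 7273 genes were higher and 1985 lower, against 4441 and 4501 with TMM. That scaling raised the median gene by 0.21, so by its construction genes slightly below 0 change sign. Among the named genes 5 did, with Sox9 at 0.018, Cd44 at 0.21, Has3 at 0.11, Fmod at 0.020 and Mgp at 0.14 (log2). The number of members called higher went from 2 to 1 with DESeq2 and at an adjusted p of 0.01, and was 1 to 2 on leaving out single libraries, Comp being the gene lost. The number called lower was 4 on leaving out any single library, Hapln1 among them, whose direction the filter fixed. With library size only, 3 members were called higher and 3 lower. All-row counts on leaving out single libraries were 4154 to 4286 higher and 4250 to 4321 lower. Log2 fold changes then ranged from 1.37 to 1.41 for Sox6, -0.66 to -0.48 for Sox5, -0.21 to -0.19 for Sox9, -1.03 to -0.98 for Matn2 and -1.09 to -0.95 for Hapln1. Over 29 named genes, 562 of 580 values under alternatives kept direction and side of the threshold, 12 lost the call in the same direction, 1 gained it in the same direction (Prg4) and 5 changed sign, of which Sox9 and Fmod also lost the call and Cd44 gained it. edgeR with no filter was chosen after seeing the data and gave 4690 genes higher and 4810 lower.

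The replicate block gave 4502 genes higher and 4551 lower, with 2 members higher and 4 lower. Deviations of same-numbered libraries correlated at -0.056, 0.167 and 0.127 (r across genes). Libraries numbered 2 and 3 correlated best with their own number, and those numbered 1 did not. Whether same-numbered libraries shared a batch was not tested. Depth limits Matn3, Chad and Acan, and Comp rests on at most 54 reads per library.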

Other observations

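Among the other SOX9 partners and chondrocyte regulators, named after their values were seen, 2 of low level were nearly absent from the labelled libraries. Nkx3-2, which encodes a repressor that acts early in chondrocyte formation, had 8, 9 and 7 reads in control and 0 in each labelled library. Counted against 3 reads over the labelled group, that was 8.77-fold lower, a figure that leaves out the counting error of the control reads. Pthlh, the gene of parathyroid hormone-related protein, which delays chondrocyte hypertrophy, had values of 1.27, 1.27 and 1.68 in control and 0, 0.0434 and 0 in the labelled libraries. It passed the filter only through control and so had to differ. Sox18, a gene best known from blood and lymph vessels, had values of 0.920, 0.935 and 0.718 in control and 0.271, 0.217 and 0.181 in the labelled libraries, below the filter. Endothelial Cdh5 and Kdr had 0 reads in all 6 libraries, but Pecam1 was detected in each. It had 15, 14 and 7 reads in control and 3, 18 and 18 in the labelled libraries.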
